A study of Bos taurus with 12 samples.

Results

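The miR-181 family of bovine granulosa cells comprised 4 mature miRNAs, bta-miR-181a, bta-miR-181b, bta-miR-181c and bta-miR-181d, of the 755 mature miRNA names listed in the count tables. Membership was set by the miRNA name, but the family was taken up with earlier results of these data known. Small RNA was sequenced from granulosa cells of Simmental heifers, all synchronized for estrus, that were slaughtered on day 3 or on day 7 of their cycle. On each day the cells came from subordinate (SF) or dominant follicles (DF), which gave 4 groups of 3 libraries each, SF day 3, DF day 3, SF day 7 and DF day 7. A follicle was classed as SF or DF by its diameter alone, and the diameter limits of both classes were higher at day 7 than at day 3. Between the days, groups of the same class therefore differ in size limits as well as in day. Cells were pooled by size class. The study counted only 3 dominant follicles at day 7, so a DF day 7 library may hold the cells of 1 follicle. Subordinate follicles were far more numerous on both days. The 3 libraries of a group were labelled as biological replicates. With 1 entry kept for each miRNA name, the count per library ranged from 160418 to 405129 reads assigned to known miRNAs, with a median of 297449. Over all entries listed, it ranged from 220032 to 539653. Pairs of replicates differed beyond sampling noise, and their chi-square, divided by its degrees of freedom, lay between 10.2 and 128. At day 7 some libraries stood apart, SF replicate 1 at 92.3 and 82.8 against replicates 2 and 3, which differed by 18.7, and DF replicates 2 and 3 at 128 against each other. All 4 members had reads in 12 of 12 libraries, and all passed the filter for detected miRNAs in every comparison.

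MicroRNAs are short RNAs that guide Argonaute proteins to messenger RNAs and lower their translation or stability, and the bases near the 5′ end of the miRNA, called the seed, do most of the target recognition. The members of the miR-181 family carry the same seed and therefore share many predicted targets, while they differ in a few bases elsewhere. The family is best known from lymphocytes, where miR-181a tunes the sensitivity of the T cell receptor, and miR-181a has also been described in granulosa cells as a repressor of an activin receptor. In a growing follicle, granulosa cells surround the oocyte and make estradiol, and the dominant follicle of a wave keeps growing while its subordinates stop.

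In the cow genome, as annotated by RefSeq on assembly ARS-UCD2.0, the family is encoded at 3 places. MIR181A-2 and MIR181B-2 lie side by side and overlap the annotated spans of NR6A1, an orphan nuclear receptor gene, and of LOC100848407, a long noncoding RNA gene. The nearest gene to one side is NR5A1, which encodes the steroidogenic factor SF-1. MIR181A-1 and MIR181B-1 lie side by side with no other gene over their span. MIR181C and MIR181D lie side by side and overlap the annotated span of NANOS3. The mature miR-181a and miR-181b are thus each encoded at 2 places, and the count tables hold 6 precursor entries for the 4 members. The entries of bta-mir-181a-1 and bta-mir-181a-2 totalled 23116 and 23114 reads, so they held nearly the same counts and the locus of origin of miR-181a could not be read from them. The entry of bta-mir-181b-2 held more reads than that of bta-mir-181b-1 in 12 of 12 libraries, with totals of 2814 and 2588 reads. The excess, as a share of the bta-mir-181b-2 reads, was 7.54% ± 1.64 in SF day 3, 9.41% ± 2.32 in DF day 3, 11.0% ± 1.91 in SF day 7 and 7.24% ± 1.36 in DF day 7 (SD, n = 3). How reads that match several precursors or several members were divided is not given in the sources used here, so a part of the counts of each member may belong to another. The entry with the most reads was used for each member.

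The miR-181 family was most abundant in the dominant follicles of day 7. There, all 4 members stood above every library of the other 3 groups. The values below are normalized counts, that is, reads divided by a median-of-ratios size factor of the library over all 12 libraries, and means are given ± SD with n = 3.

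For bta-miR-181a, the SF day 3 libraries held 887, 839 and 1007 normalized counts, those of DF day 3 held 455, 630 and 576, those of SF day 7 held 678, 1175 and 1144, and those of DF day 7 held 4956, 6662 and 4996. The means were 911 ± 86.4, 554 ± 89.9, 999 ± 279 and 5538 ± 973 in the same order. The DF day 7 libraries stood far above all others, DF day 3 lay lowest without overlapping any other group, and the SF groups of both days overlapped each other. By mean count, bta-miR-181a was at place 36 of the miRNA names in SF day 3, 47 in DF day 3, 37 in SF day 7 and 12 in DF day 7.

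The bta-miR-181b values were 119, 124 and 129 normalized counts in SF day 3, 57.9, 104 and 92.8 in DF day 3, 95.3, 153 and 115 in SF day 7, and 600, 719 and 569 in DF day 7. Their means were 124 ± 5.46, 84.9 ± 24.0, 121 ± 29.2 and 629 ± 79.1. DF day 7 stood clear of all other groups, and DF day 3 lay below SF day 3 without overlap but overlapped SF day 7.

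For bta-miR-181c, SF day 3 held 31.2, 17.5 and 35.4 normalized counts, DF day 3 held 21.0, 22.6 and 14.7, SF day 7 held 29.4, 45.5 and 26.3, and DF day 7 held 125, 165 and 90.9. The means were 28.0 ± 9.37, 19.4 ± 4.22, 33.7 ± 10.3 and 127 ± 36.9. The day 3 groups overlapped, and DF day 7 lay above all 9 other libraries.

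The rarest member, bta-miR-181d, had between 2 and 18 raw reads in a library. Its normalized counts were 5.35, 6.73 and 3.66 in SF day 3, 3.76, 2.45 and 1.95 in DF day 3, 3.56, 4.05 and 7.80 in SF day 7, and 15.4, 14.97 and 16.2 in DF day 7. The means were 5.25 ± 1.54, 2.72 ± 0.93, 5.14 ± 2.32 and 15.5 ± 0.62. With so few reads, counting error alone is wide for this member, and the other 3 groups overlapped one another.

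**Figure D1:**
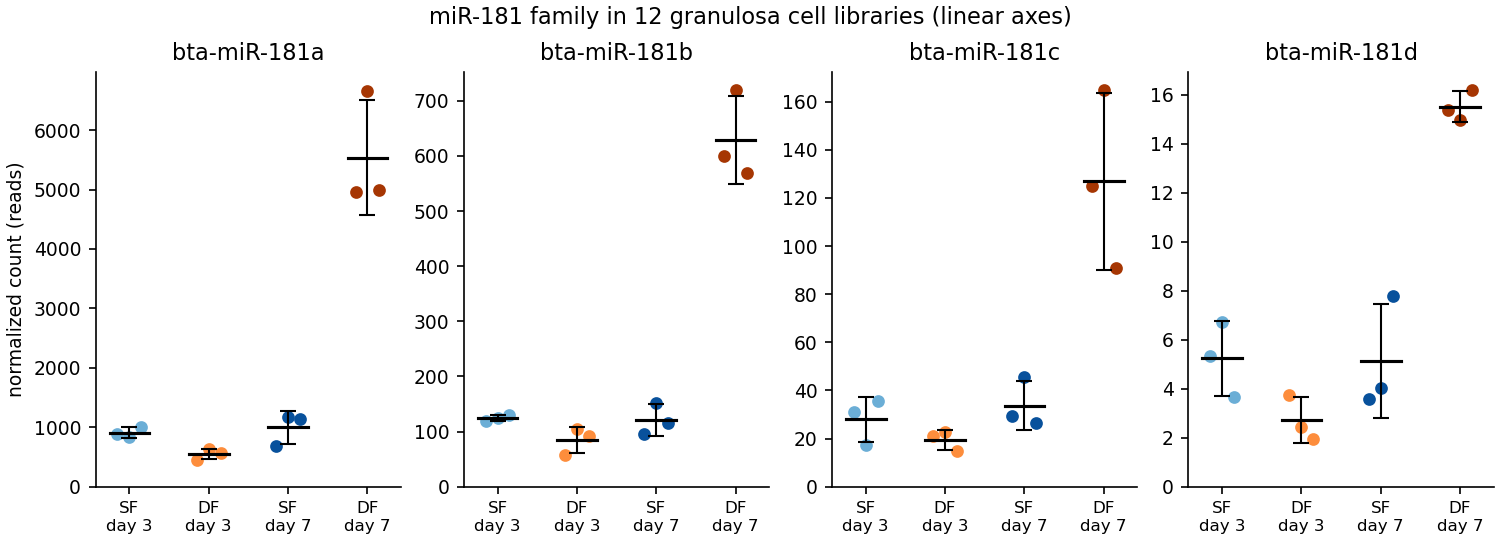
Normalized counts (reads, linear axes that start at 0) of the 4 members of the miR-181 family in each of the 12 libraries, 1 point per library, with the group mean as a bar and the SD as whiskers (n = 3). For each member the 3 DF day 7 libraries lie above the other 9, for bta-miR-181a between 4956 and 6662 against at most 1175.

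Summed over the 4 members, the family held 0.404% ± 0.039 of the library's miRNA reads in SF day 3, 0.271% ± 0.057 in DF day 3, 0.397% ± 0.091 in SF day 7 and 2.31% ± 0.47 in DF day 7. Of the family's reads, bta-miR-181a made up 85.3% ± 0.35, 83.9% ± 0.81, 86.0% ± 2.26 and 87.7% ± 0.63 in these groups. The next member, bta-miR-181b, made up 11.6% ± 0.80, 12.7% ± 1.65, 10.6% ± 1.52 and 10.02% ± 0.51. These are shares of reads, and ligation and precursor entries can favor 1 member over another.

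The comparison of SF with DF at day 3 asks how the family differed between the follicle classes at the earlier time. No member was differentially expressed at the thresholds used, which asked for a log2 fold change of 1 or more in either direction, an unadjusted p up to 0.05 and a 10% limit on the false discovery rate in edgeR's quasi-likelihood test, while 5.67% of the 335 miRNAs tested were called. The log2 fold change (SF minus DF) of bta-miR-181a was 0.67 ± 0.15 (SE) with an adjusted p of 0.00255, so it passed the false discovery rate but not the fold change threshold. That corresponds to a level 1.59-fold higher in SF. In this comparison 8.66% of all miRNAs tested were higher in SF at a false discovery rate of 10% irrespective of fold change. The remaining log2 fold changes were 0.50 ± 0.21 for bta-miR-181b (adjusted p = 0.1251), 0.47 ± 0.31 for bta-miR-181c (adjusted p = 0.355) and 0.85 ± 0.67 for bta-miR-181d (adjusted p = 0.481). All 3 were positive, yet none passed the false discovery rate. The libraries of the follicle classes did not overlap for 2 members, bta-miR-181a and bta-miR-181b, both higher in SF, and the same was so for 14.9% of all miRNAs tested. The median log2 fold change of the members was 0.59, and that of all miRNAs tested was -0.04. With all 12 libraries in one fit, the adjusted p of bta-miR-181a was 0.101, which misses the false discovery rate of 10%.

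At day 7, where the difference between the follicle classes was compared again, the order of the classes was the opposite and the difference larger. All 4 members were lower in SF and passed every threshold, against 18.3% of the 350 miRNAs tested that were called lower in SF. The log2 fold change (SF minus DF) was -2.40 ± 0.28 for bta-miR-181a (adjusted p = 0.000203), a level 5.29-fold higher in DF. It was -2.30 ± 0.27 for bta-miR-181b (adjusted p = 0.00022), or 4.94-fold. The rarer members differed by less, with -1.83 ± 0.35 for bta-miR-181c (adjusted p = 0.00292) and -1.51 ± 0.47 for bta-miR-181d (adjusted p = 0.0322). For all 4 the 3 SF libraries lay below the 3 DF libraries, as they did for 23.1% of all miRNAs tested. The median of the members was -2.07, beside -0.05 for all miRNAs. By p value, bta-miR-181a was at place 11 and bta-miR-181b at place 12 of 350. Without DF day 7 replicate 1, bta-miR-181d had a log2 fold change of -1.50, its SE became 0.61 and its adjusted p 0.105, just past the limit on the false discovery rate. Without SF day 7 replicate 1, the members stayed called with log2 fold changes from -2.17 to -1.28, and without DF day 7 replicate 2 or replicate 3 they stayed called as well. These are bulk libraries, in which fewer cells of a type and less RNA per cell cannot be told apart.

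Between day 3 and day 7, the members increased in dominant follicles. The log2 fold change (day 7 minus day 3) in DF was 3.31 ± 0.23 for bta-miR-181a (adjusted p = 3.68e-08), 2.87 ± 0.27 for bta-miR-181b (adjusted p = 8.71e-07), 2.66 ± 0.31 for bta-miR-181c (adjusted p = 1.12e-05) and 2.43 ± 0.52 for bta-miR-181d (adjusted p = 0.00162). As fold changes these were 9.91, 7.32, 6.30 and 5.40. All 4 were called, and 24.4% of the 360 miRNAs tested were called higher at day 7. The libraries of both days did not overlap for any member, with day 7 higher, as was so for 25.0% of the miRNAs tested. This comparison shares its DF day 7 libraries with the comparison of the follicle classes at day 7, so the results are not independent of each other. The diameter limits of DF were higher at day 7, so day and follicle size cannot be told apart here.

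In subordinate follicles, by contrast, no member passed a threshold between the days, and the libraries of both days overlapped for all 4. The log2 fold changes (day 7 minus day 3) were 0.15 ± 0.20 for bta-miR-181a, -0.01 ± 0.25 for bta-miR-181b, 0.28 ± 0.37 for bta-miR-181c and -0.01 ± 0.60 for bta-miR-181d, with adjusted p values from 0.928 to 0.987. The SE of bta-miR-181d was the widest of the 4, and its counts were the lowest. Few miRNAs differed in this comparison as a whole, 0.593% of 337, while 37 had an unadjusted p of at most 0.05.

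Whether the difference between DF and SF itself changed between the days was tested with the interaction term over all 12 libraries, coded as the DF minus SF difference at day 7 less that at day 3. It was 3.19 ± 0.31 on the log2 scale for bta-miR-181a (adjusted p = 1.3e-06), 2.92 ± 0.34 for bta-miR-181b (adjusted p = 6.65e-06), 2.42 ± 0.47 for bta-miR-181c (adjusted p = 0.000957) and 2.48 ± 0.71 for bta-miR-181d (adjusted p = 0.0149). All 4 were called with a positive sign, against 14.3% of the 378 miRNAs tested. At place 4 of 378 by p value, bta-miR-181a was among the miRNAs with the clearest interaction.

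**Figure D2:**
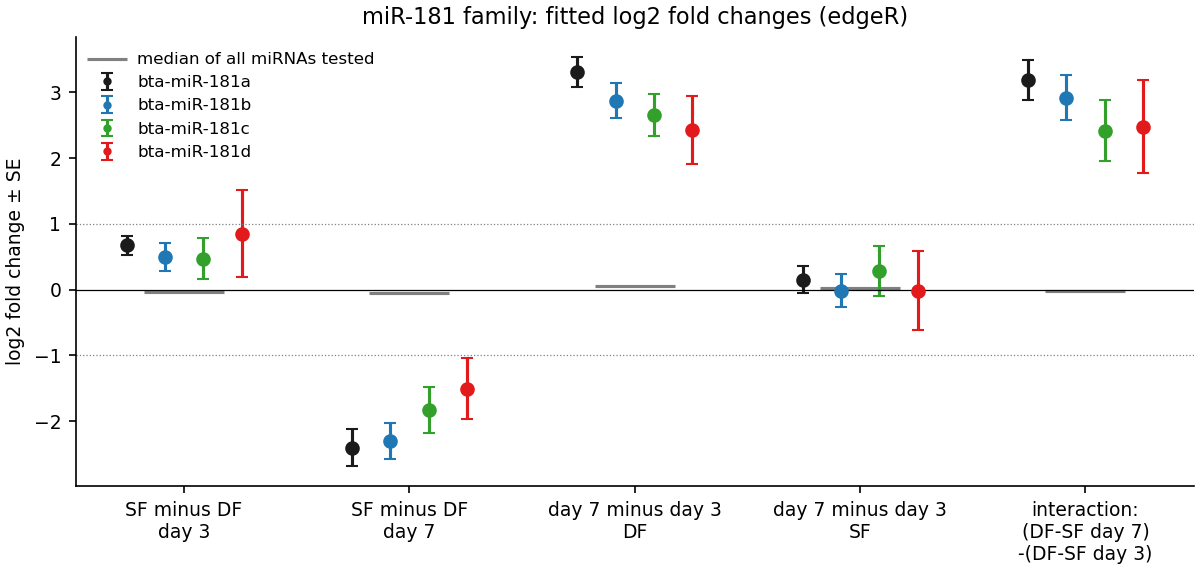
Log2 fold change ± SE of each member from edgeR in the 4 comparisons and the interaction, with the median of all miRNAs tested as a grey bar and dotted lines at the fold change threshold. The members lie between 0.47 and 0.85 at day 3, between -2.40 and -1.51 at day 7, and between 2.43 and 3.31 for day 7 minus day 3 in DF, while they lie near 0 in SF.

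**Figure D3:**
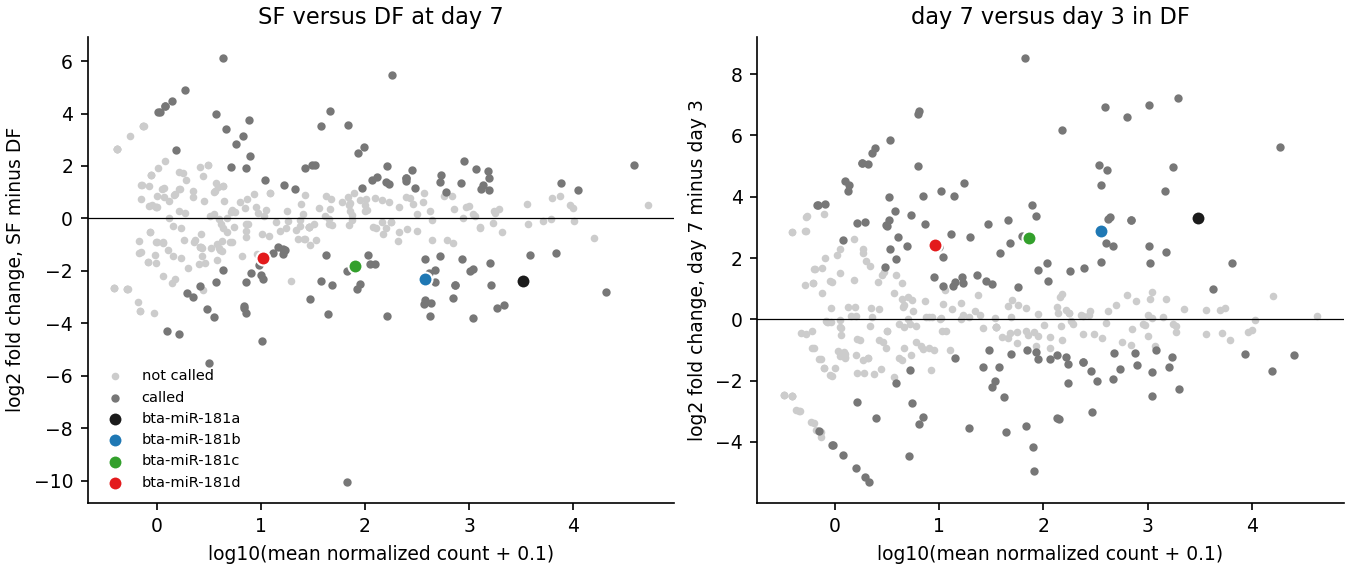
Log2 fold change of all miRNAs tested against their mean normalized count over the groups compared (log10 scale). The panels show SF minus DF at day 7 and day 7 minus day 3 in DF, with called miRNAs in dark grey and the members in color. The members differ widely in abundance, from a mean over all 12 libraries of 7.16 normalized counts for bta-miR-181d to 2000 for bta-miR-181a. Other called miRNAs lie further from 0 than the members do.

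A ratio of members within a library does not depend on how the library was scaled, so it shows whether members moved unequally. In SF day 3, DF day 3, SF day 7 and DF day 7, the mean log2 ratio of bta-miR-181b to bta-miR-181a was -2.87 ± 0.10, -2.73 ± 0.21, -3.02 ± 0.25 and -3.13 ± 0.08. For bta-miR-181c it was -5.05 ± 0.42, -4.81 ± 0.42, -4.87 ± 0.48 and -5.47 ± 0.26, and for bta-miR-181d -7.32 ± 0.53, -7.50 ± 0.62, -7.51 ± 0.46 and -8.41 ± 0.27. The ratios of all 3 to bta-miR-181a were lowest by mean in DF day 7, where bta-miR-181a had its highest mean share of the family. In the exact permutation tests of 3 against 3 libraries, which are two-sided and cannot go below p = 0.1, the smallest adjusted p of the 12 tests was 0.3. Over all 12 libraries, an exact permutation of the labels within the follicle class gave a mean day 7 minus day 3 difference of -0.28 for bta-miR-181b (p = 0.035, adjusted p = 0.2 over 6 tests), -0.24 for bta-miR-181c (p = 0.4, adjusted p = 0.6) and -0.55 for bta-miR-181d (p = 0.095, adjusted p = 0.2). Permuted within the day, the mean SF minus DF difference was -0.02 for bta-miR-181b (adjusted p = 0.87), 0.18 for bta-miR-181c (adjusted p = 0.6) and 0.54 for bta-miR-181d (adjusted p = 0.2), by the same exact test. No unequal movement within the family passed the correction, which the tests of 3 against 3 libraries could not pass. In DF, the mean ratio changed from day 3 to day 7 by -0.40 for bta-miR-181b, -0.66 for bta-miR-181c and -0.91 for bta-miR-181d. The libraries of the DF groups did not overlap for any of these ratios. In SF the changes were -0.16, 0.18 and -0.19, and the day tests over 12 libraries averaged SF with DF. Unequal movement in DF alone was therefore not decided by these tests.

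**Figure D4:**
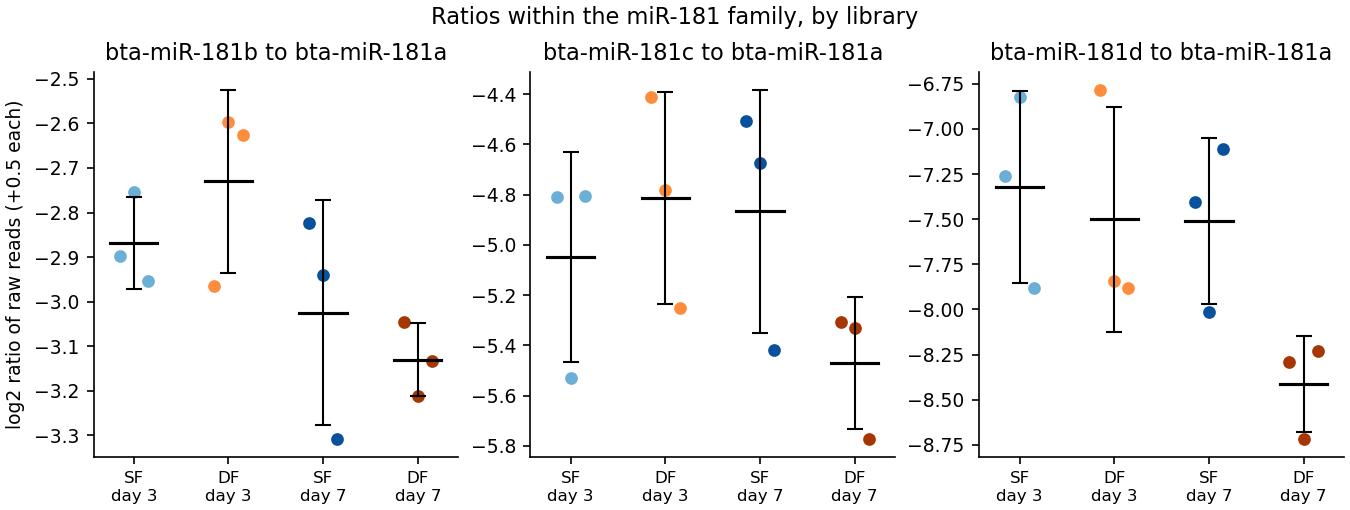
Log2 ratio of raw reads (0.5 added to each) of bta-miR-181b, bta-miR-181c and bta-miR-181d to bta-miR-181a in each library, with the group mean as a bar and the SD as whiskers (n = 3). The axes do not start at 0. The DF day 7 libraries have the lowest mean ratios, -3.13, -5.47 and -8.41, and for bta-miR-181d they lie below all other libraries. That member had 2 to 18 reads a library, and the added 0.5 raises the lowest counts most. Its share of the family's reads overlapped, at 0.2856% in DF day 7 replicate 3 and 0.2853% in DF day 3 replicate 3. No difference passed the correction, which tests of 3 against 3 libraries could not pass.

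The miRNAs most alike in pattern to each member were sought among those with a mean of at least 10 reads, as a description over 12 libraries that share their depth and normalization. For bta-miR-181a they were bta-miR-27a-3p (Pearson's r = 0.994), bta-miR-181b (0.990), bta-miR-199c (0.989), bta-miR-199a-3p (0.989) and bta-miR-24-3p (0.986) of 185 candidates. The names bta-miR-199c and bta-miR-199a-3p had the same normalized count in 3 of the 4 groups, 201 in SF day 3, 133 in DF day 3 and 1263 in DF day 7, and nearly the same in the fourth, so they may hold the same reads and are best read as 1 pattern. In mammals, miR-27a, miR-24 and miR-23a are made from 1 primary transcript. Since 1 group lies far above the others, any miRNA that was high in DF day 7 obtains a high correlation. Over the 9 libraries of the other groups, r with bta-miR-181a was 0.931 for bta-miR-27a-3p, 0.892 for bta-miR-181b, 0.945 for bta-miR-199c, 0.944 for bta-miR-199a-3p and 0.858 for bta-miR-24-3p.

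The 3 miRNAs most like bta-miR-181b were bta-miR-181a, bta-miR-199a-3p and bta-miR-199c (r = 0.990, 0.986 and 0.986). Those of bta-miR-181c were bta-miR-193b, bta-miR-23a and bta-miR-221 (0.974, 0.960 and 0.957), and bta-miR-181a came at place 8. For bta-miR-181d they were bta-miR-708, bta-miR-214 and bta-miR-27a-3p (0.952, 0.927 and 0.919), with bta-miR-181a at place 5. Between bta-miR-181c and bta-miR-181d, which are encoded side by side, r was 0.828 over 12 libraries and 0.214 over the 9 libraries outside DF day 7, at the low counts of bta-miR-181d. Between bta-miR-181a and bta-miR-181b the corresponding values were 0.990 and 0.892.

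**Figure D5:**
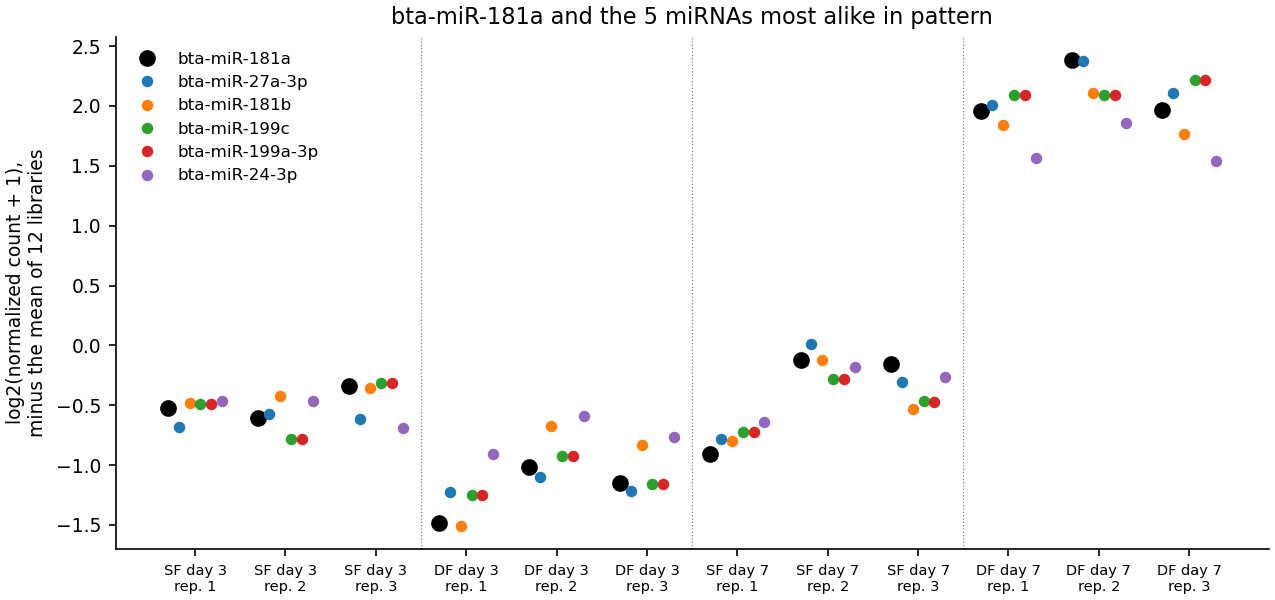
Log2(normalized count + 1) of bta-miR-181a and of the 5 miRNAs most alike in pattern, each less its mean over the 12 libraries, with 1 point per library and the groups divided by dotted lines. All 6 lie highest in the 3 DF day 7 libraries and lower in DF day 3 than in SF day 3 by their group means, and bta-miR-199c and bta-miR-199a-3p nearly coincide.

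Other groups of at least 4 tested names with the same miR number were described by the same counts. At day 7, 2 of 7 such groups had all tested members called lower in SF, miR-181 and miR-199, with a median log2 fold change of -2.46 for the 4 miR-199 names. In DF between the days, all tested names of 3 groups were called higher at day 7, which were miR-181, miR-199 and miR-29, with medians of 2.76, 2.85 and 2.53. For the interaction the groups were again miR-181 and miR-199. At day 3 and in SF between the days, none of the 6 groups had any called name.

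The DF day 7 libraries differed from the others in miRNAs that mark cell types, too. Of the 4 leukocyte miRNAs on the list (miR-142-3p, miR-142-5p, miR-150 and miR-223), 3 were called lower in SF at day 7 and 4 higher in DF at day 7 than at day 3. Of all miRNAs tested, 18.3% and 24.4% were called in these directions. Their summed level ranged from 108 to 220 normalized counts in SF day 3, 116 to 162 in DF day 3, 184 to 705 in SF day 7 and 783 to 8636 in DF day 7, carried almost wholly by miR-142-5p and miR-150 with means of 3374 and 792 in DF day 7. The DF day 7 libraries were unlike each other, with sums of 3110, 8636 and 783 in replicates 1, 2 and 3. In the same libraries bta-miR-181a held 4956, 6662 and 4996, and a relation between the 2 was not tested. Counts of miR-142-3p were 0 in both day 3 groups and near the floor at day 7, with means of 0.34 in SF and 3.94 in DF. Of the 4 mesenchymal, smooth muscle or theca miRNAs (miR-143, miR-145, miR-199a-3p and miR-214), 3 were called lower in SF at day 7 and 4 higher in DF at day 7. At day 3, 1 of them was called higher in SF, as were 13 of the 335 miRNAs tested. Their sums ranged from 3888 to 5116, 2336 to 4061, 3063 to 5167 and 8056 to 15723 in the same order of groups, and miR-143 made up most of the sum, with a mean of 9997 in DF day 7. Of these, miR-199a-3p and miR-214 are also among the miRNAs most alike to the members named above.

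The erythroid sum (miR-451, miR-486 and miR-144) ranged from 315 to 1642, 737 to 1087, 438 to 515 and 808 to 2322. Of its names, 2 of 2 tested were called lower in SF at day 7, against 18.3% of all miRNAs tested. The endothelial sum (miR-126-3p and miR-126-5p) ranged from 103 to 131, 61.6 to 101, 90.9 to 221 and 130 to 160. Here 1 of 2 names tested was called higher in DF at day 7 than at day 3, against 24.4% of all miRNAs tested. Epithelial miRNAs (miR-200a, miR-200b, miR-200c, miR-141 and miR-429) summed to at most 21.5 in any library. Of these, 1 of 3 names tested was called lower in SF at day 3, as were 6 of the 335 miRNAs tested. The gonadal somatic pair, miR-202 and miR-383, summed to 2418 to 2839, 3131 to 3676, 2215 to 2477 and 364 to 976, lowest in DF day 7. The sum was almost wholly miR-202, which was present in all libraries. Group means of miR-383 were near the floor throughout, at 2.94, 1.27, 2.22 and 0 in the same order. Both names, 2 of 2, were called higher in SF at day 7, as were 53 of the 350 miRNAs tested. Of the pair, 1 was called lower in DF at day 7 than at day 3, as were 57 of the 360 miRNAs tested. The part of other cell types in the levels of the miR-181 family was not tested.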

How the data were processed

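Small RNA libraries of granulosa cells (4 groups, n = 3 each) were analysed from the raw read counts per mature miRNA and precursor that the authors deposited. Per the submitters' processing notes and the study's methods, base calls were made with CASAVA 1.8.0, reads were checked with FastQC and trimmed with cutadapt, aligned to the bovine genome, and counted against miRBase with miRDeep2. The members and lists were chosen with earlier results of these data known. For each mature name with several precursor entries, the entry with the highest total was kept. The deposited counts carry no molecular identifiers, so reads are not independent molecules, and p values measure the spread between libraries only.

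Each comparison was fitted on its own 6 libraries (the interaction on all 12) with edgeR 4.0.16 (R 4.3.3), quasi-likelihood test, median-of-ratios factors, a prior count of 0.125, and miRNAs with reads in 2 or more of the 3 replicates of either group. P values were adjusted over all miRNAs tested by Benjamini-Hochberg. Called miRNAs had a log2 fold change of 1 or more in size, an unadjusted p up to 0.05 and a false discovery rate up to 10%. SEs were derived from the fold change and its F statistic. The fit was also run on simulated counts with known fold changes. These had the same dispersion for all miRNAs, which need not match the spread of the replicates here. Ratios used raw reads plus 0.5 and two-sided exact permutation tests (Python 3.11.15, scipy 1.17.1). Named were the members, the 5 miRNAs most alike in pattern to bta-miR-181a and 3 for each other member, groups of at least 4 names with the same miR number of which all tested names were called, and the cell type lists. DESeq2 1.42.0, TMM, library size alone, other filters, other treatments of precursors, a replicate block, a prior count of 2 and leaving out each library were alternatives.

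Deviations of same-numbered libraries from their group means correlated weakly, at 0.128, 0.159 and 0.181, between SF and DF at day 7 over 186 miRNAs. At day 3 the correlations were -0.143, -0.0939 and -0.0267, and heifers of different days were different animals. The labels do not say whether the numbers are pairs. All main fits therefore treated the libraries as unpaired, and pairing entered only through the replicate block, as an alternative.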

Additional observations from a re-analysis of the deposited data

Results flagged for a closer look

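The difference between DF and SF changed from day 3 to day 7 for all 4 members, by the interaction term in edgeR's quasi-likelihood test. The change was 3.19 on the log2 scale for bta-miR-181a (adjusted p = 1.3e-06), 2.92 for bta-miR-181b (adjusted p = 6.65e-06), 2.42 for bta-miR-181c (adjusted p = 0.000957) and 2.48 for bta-miR-181d (adjusted p = 0.0149). All 4 were called, against 14.3% of the 378 miRNAs tested that were called with a positive sign. SF lay above DF by group mean at day 3 and below it at day 7 for each member, but no member was called at day 3.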

How the results depend on the processing

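Over the alternatives, 342 of 355 refitted log2 fold changes of members kept their direction and their call, that is, whether all 3 thresholds were passed together. For SF versus DF at day 7, DF between the days and the interaction, 220 of 221 did, the exception being bta-miR-181d at day 7 without DF day 7 replicate 1 (-1.50). The other 12 were changes of sign in SF between the days, where no member was called: 0.0294 for bta-miR-181b and 0.0227 for bta-miR-181d with TMM, -0.011 for bta-miR-181a with library size alone, 0.0036 for bta-miR-181b with a filter of at least 10 reads in at least 3 libraries, and, leaving out a library, from -0.0237 to 0.35 for bta-miR-181a, -0.26 to 0.12 for bta-miR-181b, -0.0314 to 0.46 for bta-miR-181c and -0.41 to 0.18 for bta-miR-181d. At that filter bta-miR-181d had too few reads and was not tested. The mean SF minus DF difference in the ratio of bta-miR-181b to bta-miR-181a was 0.0003 with a pseudocount of 5 and -0.0753 to 0.0549 when a library was left out. Within single comparisons, leaving out a library turned the sign of the ratio of bta-miR-181c to bta-miR-181a at day 3 (-0.45 to 0.0062) and in SF between the days (-0.059 to 0.46), and that of bta-miR-181d at day 3 (-0.0679 to 0.54) and in SF between the days (-0.47 to 0.0647). The cause was not tested. At day 3, where no member was called in any fit, single thresholds were crossed: bta-miR-181d reached a log2 fold change of 1.03 without SF day 3 replicate 3 and 1.14 without DF day 3 replicate 1, and by edgeR the adjusted p of bta-miR-181b was 0.0778 with all entries and 0.0981 without DF day 3 replicate 2.

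Library size alone moved the median log2 fold change of all miRNAs by -0.15 for SF versus DF at day 7, -0.14 for DF between the days and -0.14 for SF between the days, so changes are relative to the median-of-ratios scale. The replicate block called 4 members at day 7 and 115 miRNAs in all, against 117 without it, and changed no member's call in any comparison. In SF between the days it called 7 miRNAs instead of 2, DESeq2 5, no filter 12, all entries 10, all 12 libraries in one fit 1, the filter on 10 reads 0, and leaving out a library 0 to 20. Other totals that moved over 1.5 times were, at day 3, 11 with DESeq2, 12 with the filter on 10 reads, 8 with all 12 libraries in one fit and 10 without SF day 3 replicate 1, against 19, and in DF between the days 92 with the filter on 10 reads, against 145. Summing reads over precursors raised the family's share to 0.587%, 0.396%, 0.569% and 3.35% in SF day 3, DF day 3, SF day 7 and DF day 7, since both entries of bta-miR-181a and bta-miR-181b then count. By Spearman's rho, 3 of the 5 miRNAs most alike to bta-miR-181a stayed, and 1 of 3 each for bta-miR-181b and bta-miR-181d. Depth limits bta-miR-181d most, at 2 to 18 reads a library.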
